A study of Mus musculus with 135 samples.

Results

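Interneuron marker genes were followed in the cerebral cortex and the hippocampus of Townes mice. The 9 genes (Gad1, Gad2, Pvalb, Sst, Vip, Npy, Cck, Calb2 and Reln) were taken from both count tables by their symbol, out of 55416 genes in each table, and all 9 passed the filter on low counts in every comparison. RNA was sequenced from whole pieces of either tissue, so that a level is an average over all cells of the piece, and fewer interneurons cannot be told apart from less RNA per interneuron. In Townes mice human globins replace those of the mouse, in the normal adult form in AA mice and with the sickle allele in SS mice, the model of sickle cell disease. All mice were males, aged 6 months when the experiments began. Repeat social defeat (RSD) put an aggressor male into the home cage for 2 hours on each of 6 consecutive days. Minocycline, a tetracycline antibiotic, was given in the drinking water at 90 mg/kg from the day before RSD until the last session, and the brains were taken a few days later, after behavioral tests. The groups with cortex libraries in the tests were AA (12 mice) and SS (8), AA + RSD (2) and SS + RSD (6), AA + minocycline (1) and SS + minocycline (4), and RSD with minocycline in 18 AA and 14 SS mice. Hippocampus libraries came from 11 AA mice, 7 SS mice and the same numbers in the other groups. AA and SS without further words are control mice with neither RSD nor minocycline.

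Cortical and hippocampal interneurons are inhibitory neurons that release GABA onto cells nearby. GABA is made from glutamate by the glutamic acid decarboxylases GAD67, encoded by Gad1, and GAD65, encoded by Gad2, which nearly all interneurons hold. The other members mark subtypes: the calcium-binding proteins parvalbumin (Pvalb), of fast-spiking basket and chandelier cells, and calretinin (Calb2); the neuropeptides somatostatin (Sst), vasoactive intestinal peptide (Vip), neuropeptide Y (Npy) and cholecystokinin (Cck); and the secreted glycoprotein reelin (Reln), which interneurons of the outer layers and Cajal-Retzius cells make. None of these genes is silent in all other cells. Cck is also strongly expressed by pyramidal neurons, and Calb2 by mossy cells of the mouse dentate gyrus and by granule and periglomerular cells of the olfactory bulb.

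The start regions of 4 peptide genes are shown because Sst, Npy and Cck varied together from library to library while Vip differed most between the tissues among the peptide genes. Each sequence runs 5′ to 3′ from 250 bases before the start site to 50 bases after it (RefSeq, GRCm38.p6), and capitals mark the cAMP response element TGACGTCA or its shorter core TGACGT, which lies within it, the TATA box TATAAA and the CCAAT box, on either strand.
Sst, chr16:23890795-23891094, minus strand: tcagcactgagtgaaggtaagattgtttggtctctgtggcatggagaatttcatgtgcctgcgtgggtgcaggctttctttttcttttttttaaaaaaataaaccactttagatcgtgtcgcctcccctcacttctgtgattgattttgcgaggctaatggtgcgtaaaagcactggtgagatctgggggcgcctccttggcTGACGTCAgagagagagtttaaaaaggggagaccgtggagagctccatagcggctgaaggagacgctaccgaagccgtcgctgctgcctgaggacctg
Vip, chr10:5638968-5639267, plus strand: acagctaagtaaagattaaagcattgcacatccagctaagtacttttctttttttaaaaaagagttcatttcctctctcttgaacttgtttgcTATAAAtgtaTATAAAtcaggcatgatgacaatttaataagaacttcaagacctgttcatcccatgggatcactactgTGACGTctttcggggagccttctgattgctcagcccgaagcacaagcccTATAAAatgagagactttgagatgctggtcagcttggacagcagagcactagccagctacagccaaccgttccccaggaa
Npy, chr6:49822460-49822759, plus strand: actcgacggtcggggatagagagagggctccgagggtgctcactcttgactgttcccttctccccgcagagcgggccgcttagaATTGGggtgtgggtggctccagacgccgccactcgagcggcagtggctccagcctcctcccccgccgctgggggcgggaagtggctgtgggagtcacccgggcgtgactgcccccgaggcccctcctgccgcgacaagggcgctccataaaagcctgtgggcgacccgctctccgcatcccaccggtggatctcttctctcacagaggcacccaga
Cck, chr9:121495645-121495944, minus strand: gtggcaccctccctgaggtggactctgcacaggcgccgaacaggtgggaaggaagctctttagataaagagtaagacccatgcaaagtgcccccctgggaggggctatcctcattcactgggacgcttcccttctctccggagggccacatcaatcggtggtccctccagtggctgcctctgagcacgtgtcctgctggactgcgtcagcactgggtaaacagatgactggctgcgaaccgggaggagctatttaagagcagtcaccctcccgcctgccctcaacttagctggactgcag
The full element TGACGTCA was found in the Sst window, with its first base 48 bases before the start site, and in 1.79% of all 32851 windows. The core TGACGT was also in the Vip window, 79 bases before the start, and in 7.51% of all windows. TATAAA stood 30 bases before the Vip start and was in 13.6% of all windows, and the Npy window held CCAAT on the other strand (37.4% of all windows). The Cck window held none of these letters. RefSeq windows were at hand for 8 of the 9 members. These matches describe letters only, and binding was not measured here.

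In GRCm39 coordinates the decarboxylase genes both lie on the plus strand of chromosome 2, Gad1 at 70383416 to 70432372 and Gad2 at 22511862 to 22583886. Pvalb lies on chromosome 15 (78075314 to 78091149, minus strand) and Calb2 on chromosome 8 (110864128 to 110894881, minus strand). The peptide genes are Sst on chromosome 16 (23707321 to 23711733, minus strand), Vip on chromosome 10 (5589186 to 5599956, plus strand), Npy on chromosome 6 (49799026 to 49806489, plus strand) and Cck on chromosome 9 (121315695 to 121324863, minus strand). Reln spans 22089452 to 22549700 on the minus strand of chromosome 5. Exonic bases shared with a gene on the other strand amounted to 12.7% for Cck, 4.71% for Reln and 0.951% for Gad1. The strand setting of the counting is not given in the sources used here, so reads in those bases cannot be told apart from reads of the partner.

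Reads on genes numbered 16295042 to 107713193 in 68 cortex libraries and 12869149 to 68731008 in 66 hippocampus libraries. Mice 9887 (SS + minocycline) and 9877 (AA + RSD + minocycline) had identical counts in either tissue and were left out. Both libraries of mouse 9674 (AA + RSD) were left out as well, because genes of hippocampal fields minus genes of cortical layers differed by 2.47 on the log2 scale in the library labelled cortex (others −2.34 to −0.40) and by −1.97 in the library labelled hippocampus (others 0.77 to 3.17). Levels are given in CPM (reads scaled to the library's total on genes). Vip and Calb2 went the same way in this mouse. Vip was at 24.4 CPM in the library labelled cortex and at 67.1 CPM in the library labelled hippocampus. Calb2 was at 29.23 and 15.01 CPM. Cck did not go that way, at 283 and 272 CPM in the same order. Mouse numbers in the labels fall into series A (5349 to 5400 and 9615 to 9674), B (5645 to 5900 and 9810 to 9910) and C (7037 to 7121 and 10633 to 10639). All SS + RSD and AA + RSD mice were of series A, and all RSD + minocycline mice were of series B or C, while control mice were of A or B. What a series stands for is not given in the labels.

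In the cortex, 9 libraries stood apart from the rest by over 4 scaled median absolute deviations in genes of glutamatergic neurons, in the tissue check or in 5 genes of the olfactory bulb (Eomes, Tbx21, Doc2g, Th and Sp8), a list chosen after the members' levels were seen. In each of these 9 at least 1 member lay outside the range of the other cortex libraries. Mouse 9890 (SS + RSD + minocycline) had 1155 CPM of Gad1, 460 of Gad2, 206 of Calb2 and 219 of Reln, but 10.3 of Pvalb, and the 5 olfactory bulb genes summed to 229 CPM. In the 56 remaining cortex libraries Gad1 ranged from 292 to 467 CPM, Gad2 from 86.8 to 200 CPM, Calb2 from 9.01 to 23.8 CPM, Pvalb from 31.8 to 175 CPM and the olfactory bulb genes from 3.66 to 9.53 CPM. Mouse 5648 (AA + RSD + minocycline) had 762 CPM of Gad1 and 138 of Calb2 with 154 of the bulb genes. Mouse 9621 (SS + RSD) had 592 CPM of Gad1, 363 of Gad2, 77.4 of Calb2 and 13.1 of Pvalb with 67.6 of the bulb genes, and its 9 striatal genes summed to 1641 CPM. The striatal sum was 1280 CPM in mouse 9813, 1007 CPM in 9890 and 593 CPM in 5801, against 106 to 577 CPM in the 56 remaining libraries. Mouse 9813 (SS + RSD + minocycline) followed with 500 CPM of Gad1, 54.03 of Calb2 and 8.94 of Pvalb, and 38.4 of the bulb genes. Pvalb was under the range of the 56 libraries in 9890, 9621 and 9813 and within it in 5648 (58.3 CPM). These 4 libraries were chosen in part by the bulb genes, as were 5839 and 9878, whose bulb genes summed to 20.4 and 11.1 CPM and whose Gad1 (381 and 392 CPM) and Pvalb (52.7 and 50.9 CPM) were within the range of the 56.

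Mice 5646 and 5801 made a second pattern, with 8.99 and 14.3 CPM of Pvalb and 51.01 and 84.56 CPM of Calb2. Their Gad2, at 221 and 241 CPM, was above the range of the 56 remaining libraries. Their Sst, at 332 and 400 CPM, was within that range (80.3 to 483 CPM). Their bulb genes summed to 5.76 and 7.66 CPM, within the range of the rest, and their genes of cortical layers summed to 266 and 246 CPM. That sum was also low in 9813 (254 CPM), 9890 (272 CPM) and 9621 (296 CPM), against 478 to 668 CPM in the 56 remaining libraries. Mice 5839 and 9878 had Calb2 just above the rest, at 26.7 and 29.1 CPM, and mouse 9851 had the lowest Gad1 (172 CPM) and Calb2 (6.63 CPM). No control library stood apart by these measures, which did not include genes of the choroid plexus. In the hippocampus 3 libraries did, among them that of mouse 9810 with 9.70 CPM of Calb2 and 56.3 CPM of Pvalb. What part tissue next to the cortex has in these levels was not tested beyond leaving the libraries out.

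**Figure D1:**
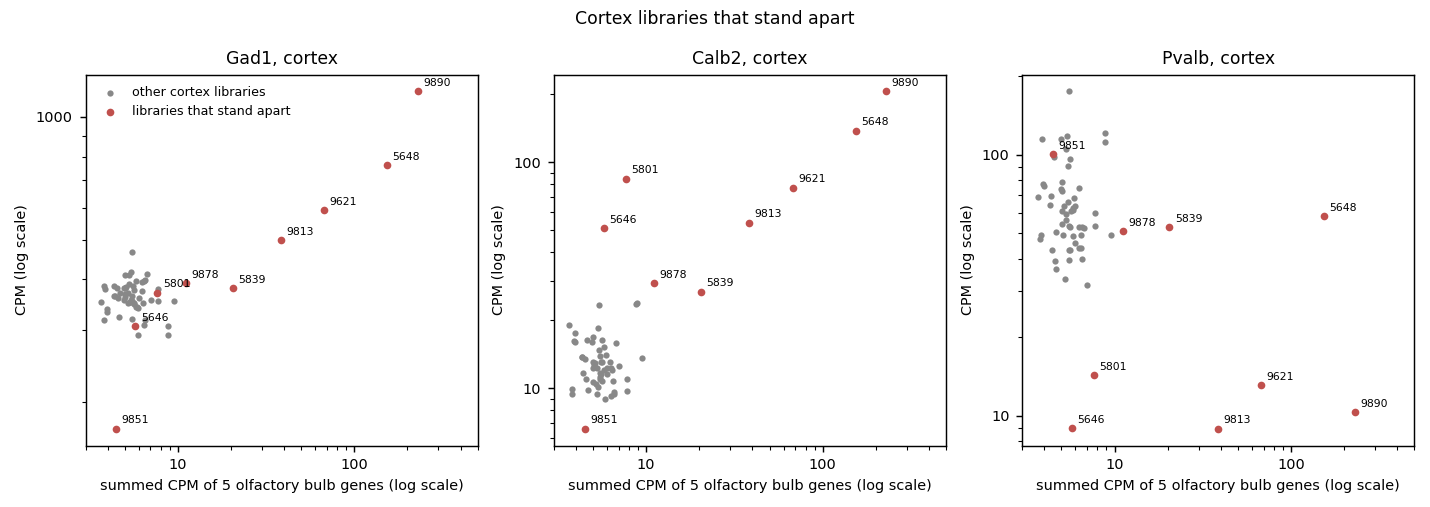
Gad1, Calb2 and Pvalb in CPM (vertical, log scale) against the summed CPM of 5 olfactory bulb genes (horizontal, log scale) in 65 cortex libraries, 1 point each, with the libraries that stood apart named by mouse. Mice 9890, 5648, 9621 and 9813 lie to the right with high Gad1 and Calb2, and 9890, 9621 and 9813 lie at the bottom for Pvalb.

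Levels were compared between genes per kilobase of the canonical transcript, in control libraries only. In the cortex the order was Npy (127 ± 30.2 CPM per kilobase, SD, n = 20), Sst (110 ± 27.3), Gad1 (87.5 ± 6.03), Cck (58.8 ± 13.1), Vip (38.0 ± 4.97), Gad2 (25.0 ± 2.23), Pvalb (19.3 ± 5.02), Calb2 (8.43 ± 1.62) and Reln (7.77 ± 0.989). Ranges of neighbours in this order overlapped, apart from Vip over Gad2 and Pvalb over Calb2. In the hippocampus Sst came first (106 ± 25.99 CPM per kilobase, n = 18), before Gad1 (81.6 ± 8.13), Npy (68.9 ± 17.5), Cck (47.5 ± 12.6), Calb2 (30.7 ± 12.5), Gad2 (25.0 ± 3.75), Vip (11.2 ± 3.52), Pvalb (8.26 ± 2.57) and Reln (7.03 ± 1.24), and every pair of neighbours overlapped. The order depends on the transcript length used, and Sst came first in both tissues when all exons were counted.

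**Figure D2:**
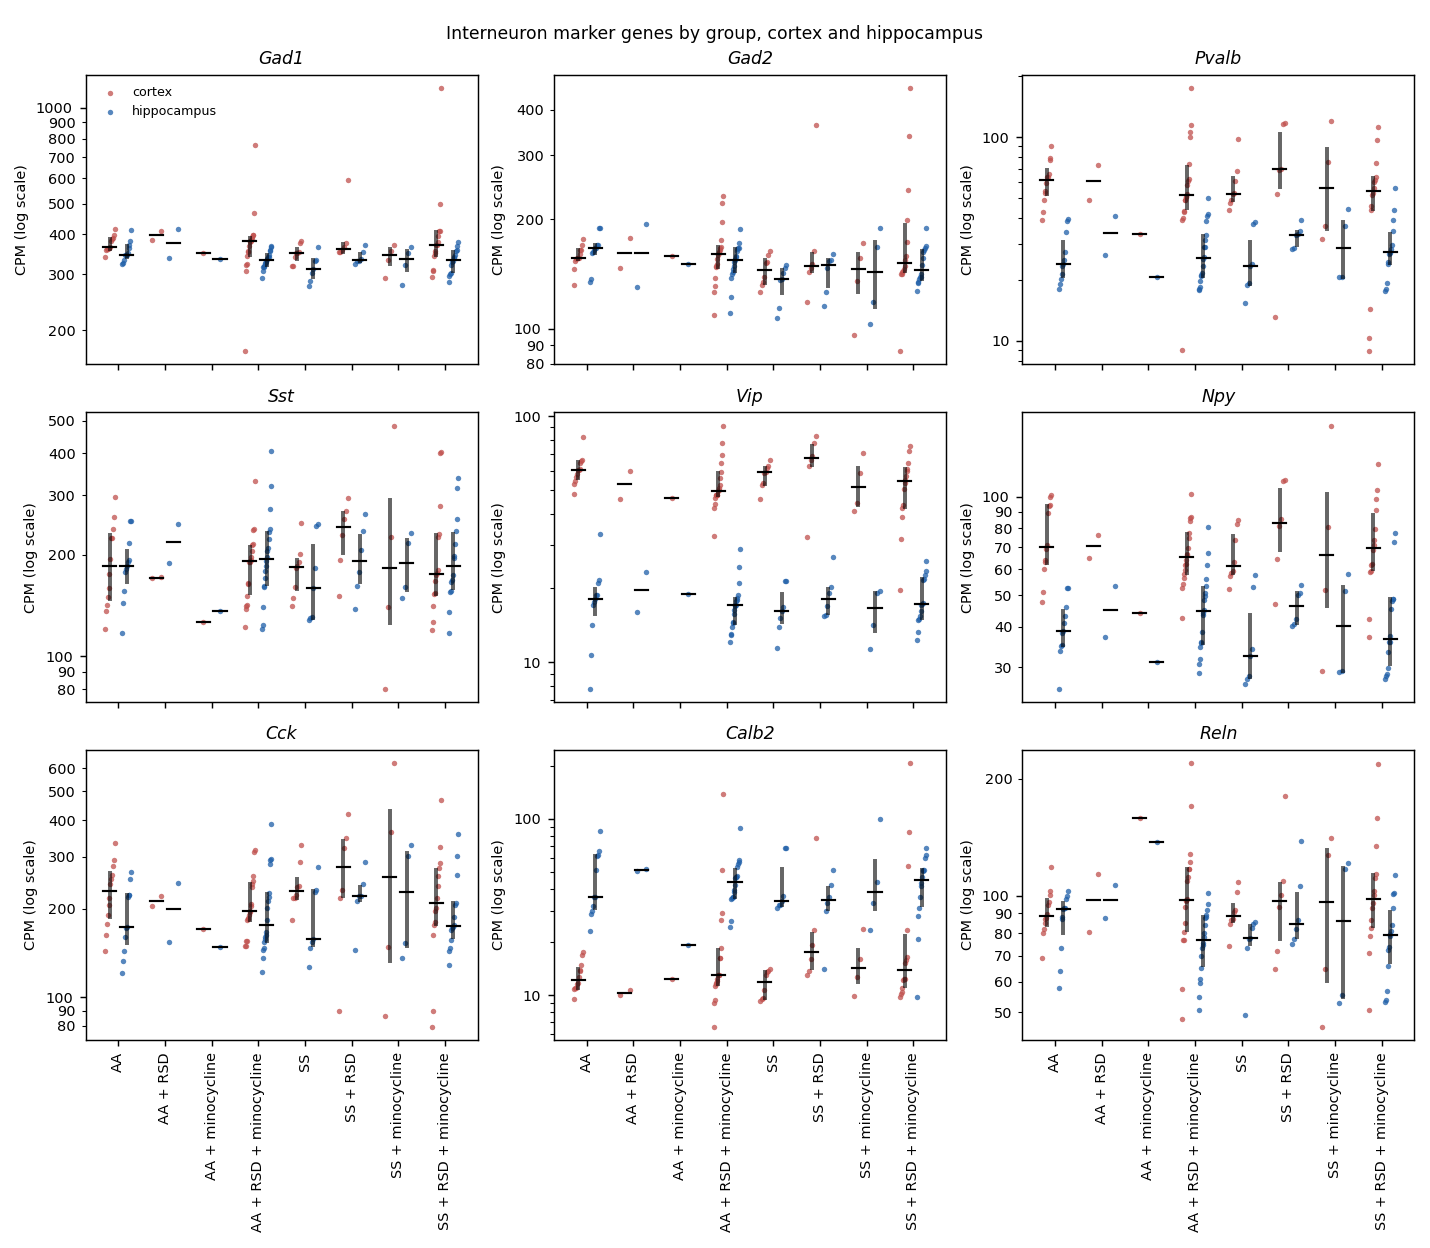
CPM of each member (log scale) in every library used, by group, with cortex in red and hippocampus in blue. Points are libraries, black lines medians and thick bars interquartile ranges where a group has over 3 libraries. Vip and Calb2 differ most between the tissues, and single cortex libraries reach 1155 CPM of Gad1 and 206 CPM of Calb2.

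The clearest differences were between the tissues. In control mice 7 of the 9 members differed between cortex (n = 20) and hippocampus (n = 18), 6 higher and 1 lower in the cortex, where edgeR's quasi-likelihood test called 46.1% of 19255 genes. The labels fit the markers fixed for each tissue: 7 of 7 genes of cortical layers were higher and 8 of 8 genes of hippocampal fields lower in the cortex. Vip, the peptide of disinhibitory interneurons that contact other interneurons, showed the largest increase. It ran from 46.1 to 82.0 CPM in control cortex and from 7.81 to 33.2 CPM in control hippocampus, without overlap, and was higher by 1.81 on the log2 scale (SE 0.11, adjusted p = 4.8e-17). Among all 63 mice with both tissues, Vip was higher in the cortex in 63.

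Pvalb averaged 60.7 ± 15.8 CPM in control cortex (SD) and 25.95 ± 8.08 CPM in control hippocampus. This is a difference of 1.25 (SE 0.14, adjusted p = 6.9e-10), with the cortex higher in 58 of 63 mice. Npy averaged 71.9 ± 17.1 and 38.99 ± 9.91 CPM, higher in the cortex by 0.91 (SE 0.12, adjusted p = 5.4e-08) and in 62 of 63 mice. Smaller differences in the same direction passed the test for Cck (0.33, SE 0.12, adjusted p = 0.025, 44 of 63 mice), Reln (0.18, SE 0.07, adjusted p = 0.033, 49 mice) and Gad1 (0.13, SE 0.04, adjusted p = 0.010, 51 mice). These 3 lost their call without the filter on low counts (Cck 0.32, Reln 0.16, Gad1 0.12) and in series A alone (0.20, 0.26 and 0.09), and Reln also in series B alone (0.16, adjusted p = 0.076 by edgeR).

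Calb2 alone was lower in the cortex, by −1.84 (SE 0.15, adjusted p = 1.2e-13). It averaged 12.4 ± 2.39 CPM in control cortex and 45.2 ± 18.4 CPM in control hippocampus, and 6 of 63 mice had the higher level in the cortex. Gad2 averaged 152 CPM in both tissues (difference 0.04, SE 0.05, adjusted p = 0.56), and Sst averaged 189 and 183 CPM (0.08, SE 0.12, adjusted p = 0.64). These 2 members were higher in the cortex in 34 and 33 of 63 mice. With the mouse as a block the same 7 members were called.

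**Figure D3:**
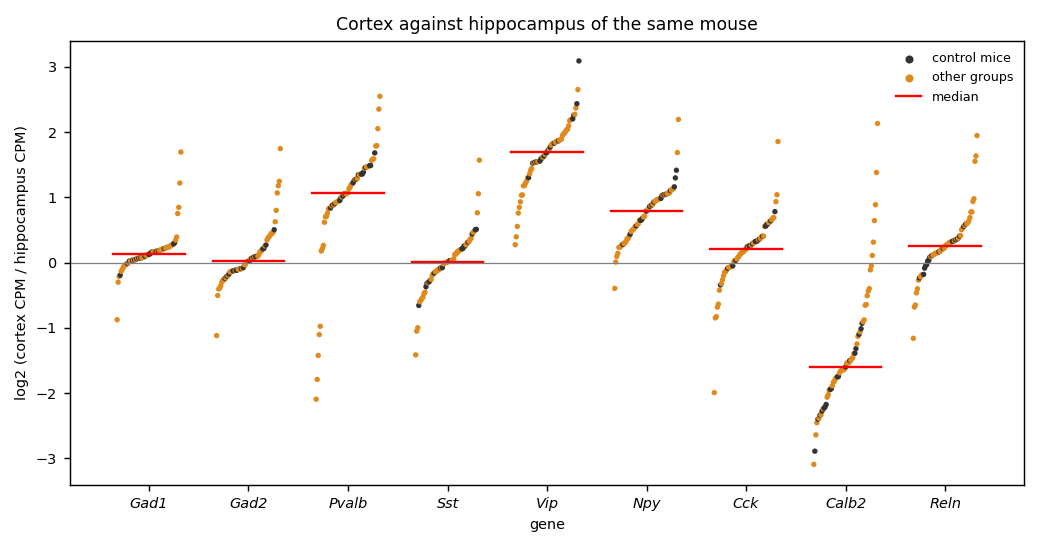
Log2 ratio of cortex to hippocampus CPM for each member, 1 point per mouse (63 mice, control mice dark, other groups orange, red line the median). Vip lies above 0 in all mice, Npy in 62, and Calb2 lies below 0 in 57.

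Related genes were called in both directions between the tissues. Of 25 genes of interneuron subtypes, 13 were higher and 9 lower in the cortex, among them Lamp5 (2.67), a marker of neurogliaform cells, Crh (2.25), the corticotropin-releasing hormone, and Nos1 (−1.57), the neuronal nitric oxide synthase. Lamp5 was also in the list of genes of cortical layers. Of 15 interneuron transcription factors tested, 6 were higher, such as Satb1 (0.95), and 5 lower, such as Prox1 (−2.68), which granule cells of the dentate gyrus also express. Receptors of the peptides divided as well, 3 higher and 4 lower of 10. The cholecystokinin receptor gene Cckbr differed by 3.14 and the somatostatin receptor gene Sstr2 by 1.15 in favour of the cortex, while the neuropeptide Y receptor gene Npy2r was lower there by −4.31 and Sstr4 by −0.80. Of 6 genes tested for GABA synthesis, transport and breakdown, Slc32a1, the vesicular GABA transporter, was higher (0.24) and Slc6a11, a GABA uptake transporter, lower (−0.11). On the reelin side 3 of 6 genes were lower in the cortex, namely Dab1 (−0.27), Vldlr (−0.25) and Fyn (−0.23), and 0 were higher. Of 4 genes of Cajal-Retzius cells tested, 3 were lower in the cortex and 0 higher (Trp73, −2.78), beside the higher Reln. GABA receptor genes (9 higher and 5 lower of 15) included Gabrd (1.38) and Gabra5 (−1.47), and of 9 genes of the perineuronal net around Pvalb cells 1 was higher and 6 were lower, such as Hapln1 (−0.45). The median difference was 0.24 for the subtype genes, 0.11 for the transcription factors, −0.18 for the peptide receptors, −0.02 for GABA synthesis, −0.13 for the reelin side, 0.13 for the GABA receptors, −0.26 for the perineuronal net and −2.17 for Cajal-Retzius genes, beside −0.02 over all genes tested.

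Genotype, RSD and minocycline were then compared within each tissue, and no member was called in any of these comparisons by the main fit in edgeR at an adjusted p under 0.05. DESeq2's Wald test called 1 member in 1 of them, Gad2 for SS against AA in the hippocampus. Some alternative fits in edgeR also called members, as given below. SS and AA control mice were compared to find what the sickle genotype alone does. In the cortex 0 of 9 members were called, where 0.206% of all genes were, and 0 had an unadjusted p under 0.05. All 9 values were below 0, with a median of −0.17 (all genes −0.05), and the closest to the threshold was Npy, at 52.1 to 85.2 CPM in SS mice and 47.7 to 101 CPM in AA mice (−0.26, SE 0.21, adjusted p = 0.75). In the hippocampus 0 of 9 were called (0.158% of all genes), 2 had an unadjusted p under 0.05, and again all 9 values were below 0 (median −0.13, all genes 0.01).

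These 2 were the decarboxylases. Gad2 in the hippocampus ran from 107 to 149 CPM in SS mice (median 137) and from 134 to 190 CPM in AA mice (median 166). The groups overlapped, and the difference was −0.33 (SE 0.09, adjusted p = 0.14 by edgeR and 0.049 by DESeq2). Within number series A it was −0.46 and within B −0.29, neither called. Gad1 ran from 276 to 366 CPM in SS and from 323 to 412 CPM in AA hippocampus (−0.19, SE 0.06, adjusted p = 0.57 by edgeR). In the cortex the differences were −0.21 (SE 0.18) for Gad2 and −0.18 (SE 0.17) for Gad1.

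The response to RSD in SS mice was the main contrast of the stress experiment. For SS + RSD against SS, 0 of 9 members were called in the cortex (2.57% of all genes) and 1 had an unadjusted p under 0.05. In the hippocampus 0 of 9 were called (3.11% of all genes) and 2 had an unadjusted p under 0.05. Values above 0 were seen for 9 of 9 members in the cortex, with a median of 0.41 (all genes 0.08), and for 8 of 9 in the hippocampus, with a median of 0.29 (all genes 0.06). All SS + RSD mice were of series A but 6 of 8 SS cortex libraries and 5 of 7 SS hippocampus libraries were of series B, and most of the values that follow are therefore also given within series A.

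Calb2 had the largest difference in the cortex. The 6 SS + RSD libraries had 13.1, 13.7, 15.96, 19.1, 23.3 and 77.4 CPM, the highest from mouse 9621, and the 8 SS libraries 9.22 to 14.001 CPM (median 11.9). The groups overlapped, and the difference was 1.32 (SE 0.61, adjusted p = 0.16 by edgeR). It was 0.98 within series A (6 against 2) and 0.66 without the libraries that stood apart, with an adjusted p of 0.079 in edgeR for the latter. When only these 2 groups entered the model the adjusted p was 0.020 (1.29). In the hippocampus the same gene was at 14.1 to 51.5 CPM in SS + RSD and at 30.99 to 68.5 CPM in SS mice (−0.25, SE 0.37), and the 2 SS mice of series A, at 67.8 and 68.5 CPM, were above the 5 of series B, at 30.99 to 36.3 CPM. Within series A the difference was −0.95, and it was not called.

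Gad1 and Gad2 differed by 0.31 (SE 0.21) and 0.44 (SE 0.26) in the cortex, by 0.17 and 0.13 without mouse 9621, and by 0.16 and 0.39 within series A. In the hippocampus Gad1 was at 324, 329, 329, 336, 352 and 370 CPM in SS + RSD and at 276 to 366 CPM in SS mice (0.21, SE 0.08, adjusted p = 0.13 by edgeR; 0.12 within series A). Pvalb in the cortex was at 13.1, 52.9, 69.1, 69.7, 115 and 118 CPM after RSD and at 44.1 to 98.0 CPM without (0.41, SE 0.45), and in the hippocampus at 28.2 to 39.2 and 15.4 to 38.3 CPM (0.47, SE 0.27). Within series A Pvalb differed by −0.16 and −0.17. Sst, Npy and Cck also had smaller or opposite values within series A. Sst was 0.46 (SE 0.30) over all mice and 0.08 within series A in the cortex, and 0.27 (SE 0.25) and −0.27 in the hippocampus. Npy was 0.45 (SE 0.28) and 0.02 in the cortex, and 0.41 (SE 0.28) and −0.22 in the hippocampus. Cck was 0.28 (SE 0.36) and −0.16 in the cortex, and 0.33 (SE 0.27) and −0.15 in the hippocampus.

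Vip and Reln were likewise not called. Vip was at 32.2, 62.4, 65.998, 68.7, 77.5 and 83.0 CPM in SS + RSD cortex and at 46.1 to 66.4 CPM in SS cortex (0.29, SE 0.22, adjusted p = 0.37; 0.43 without the libraries that stood apart, adjusted p = 0.090 by edgeR; 0.03 within series A). Reln in the hippocampus was at 75.1, 77.1, 82.1, 86.6, 106 and 138 CPM in SS + RSD mice and at 49.3 to 85.6 CPM in SS mice (0.41, SE 0.18, adjusted p = 0.20 by edgeR), and differed by 0.32 within series A. The RSD effect was also compared between tissues, with 0 of 9 members called (0% of all genes) and an unadjusted p under 0.05 for 1, Calb2 (1.55, SE 0.74).

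**Figure D4:**
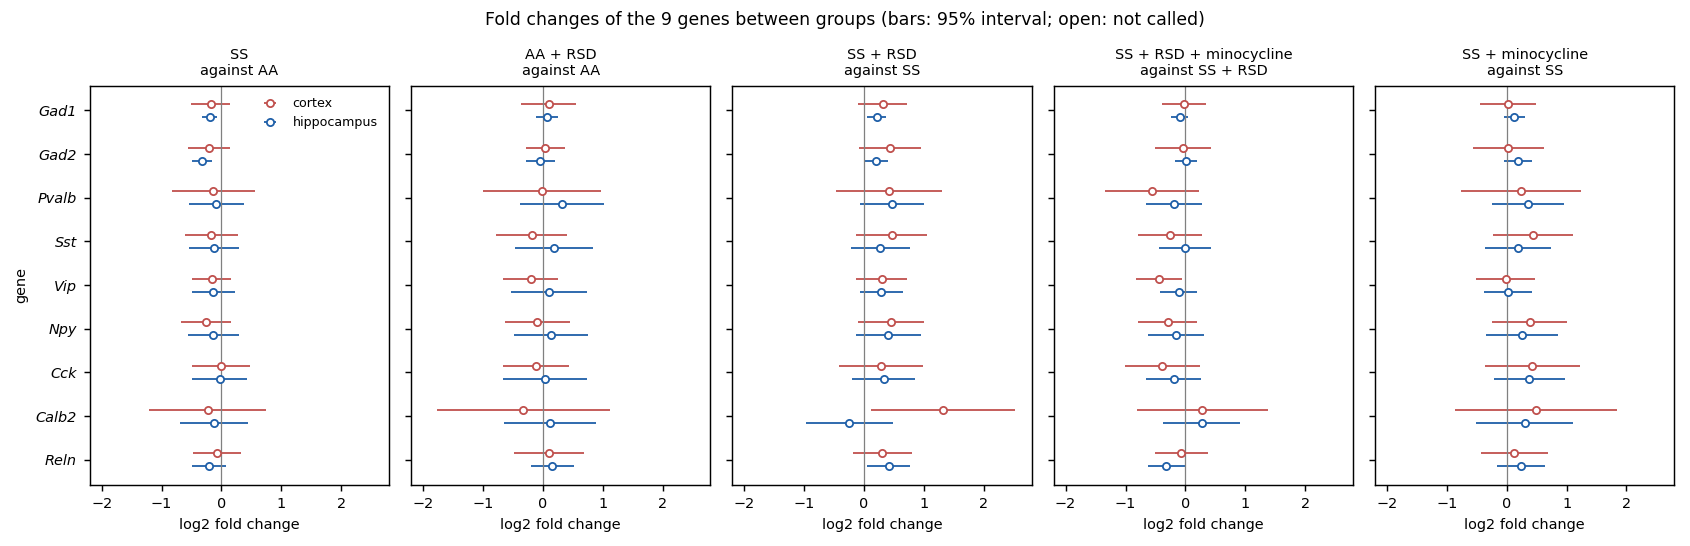
Log2 differences of the 9 members in 5 comparisons, for cortex (red) and hippocampus (blue), with bars of 1.96 standard errors derived from edgeR's F statistic. Every symbol is open, for not called, and most bars cross 0. The bars of hippocampal Gad1 and Gad2 for SS against AA lie below 0, those of cortical Calb2 and hippocampal Gad1 and Reln for SS + RSD against SS above 0, and those of cortical Vip and hippocampal Reln for the addition of minocycline below 0. A bar clear of 0 is not a test result. Hippocampal Reln for the addition of minocycline had no unadjusted p under 0.05.

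In AA mice, RSD was represented by 2 libraries per tissue, mice 9643 and 9646. AA + RSD against AA gave 0 of 9 members called in the cortex (0% of all genes) and 0 of 9 in the hippocampus (0.0419%), with 0 unadjusted p under 0.05 in either. Gad1 was at 385 and 410 CPM in the cortex, Sst at 171 and 171 CPM, Vip at 45.9 and 59.7 CPM, and Calb2 at 9.97 and 10.7 CPM. All of these lay within the ranges of AA mice except that of Vip, whose lower value was under the lowest AA library (48.4 CPM). The difference between genotypes in the RSD response was called for 0 of 9 members in the cortex (0% of all genes) and 0 of 9 in the hippocampus (0.0128%), with standard errors of 0.35 to 1.07 in the cortex and 0.13 to 0.56 in the hippocampus beside median values of 0.39 and 0.14. SS + RSD against AA + RSD gave 0 of 9 in the cortex (0%) and 0 of 9 in the hippocampus (0.0171%). None of the 9 had an unadjusted p under 0.05 in these comparisons.

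Minocycline was compared in stressed SS mice to find whether it changes the response to RSD. For SS + RSD + minocycline against SS + RSD, 0 of 9 members were called in the cortex (8.85% of all genes) and 0 of 9 in the hippocampus (5.96%), with 1 and 0 unadjusted p under 0.05. The median over members was −0.26 for cortex (all genes −0.05) and −0.11 for hippocampus (all genes −0.03). Vip came closest in the cortex, at 19.7 to 75.7 CPM with minocycline (median 54.3) and 32.2 to 83.0 CPM without (median 67.3). Its difference was −0.44 (SE 0.20, adjusted p = 0.14 by edgeR), and −0.43 with an adjusted p of 0.047 once the libraries that stood apart were left out. Reln came closest in the hippocampus, at 53.1 to 113 CPM with minocycline (median 79.1) and 75.1 to 138 CPM without (median 84.3), a difference of −0.32 (SE 0.16, adjusted p = 0.19 by edgeR). The groups of this contrast share no number series, so minocycline and series cannot be told apart. Minocycline and tissue gave 0 of 9 members called in their interaction (0% of all genes), with 0 unadjusted p under 0.05.

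SS + minocycline mice were few and spread widely. In their 4 cortex libraries Cck was at 86.4, 149, 365 and 623 CPM, Sst at 80.3, 140, 226 and 483 CPM, and Npy at 29.3, 51.9, 80.7 and 165 CPM. The lower 2 values of each gene came from series C and the higher 2 from series B. For SS + minocycline against SS, 0 of 9 were called in cortex (0% of all genes) or hippocampus (0%), with 0 unadjusted p under 0.05. Series C held no SS mice, and within series B (2 against 6) Cck, Npy and Sst were called higher in the cortex, by 1.35, 1.197 and 1.25 against 0.43, 0.38 and 0.44 over all mice, where 5225 of 19253 genes were called. SS + RSD + minocycline against SS + minocycline also gave 0 of 9 in the cortex (0%) and the hippocampus (0%), with 0 unadjusted p under 0.05. The values had opposite signs in the series: in the cortex Cck, Npy and Sst were at −1.40, −0.96 and −1.001 within series B (12 against 2, called) and at 1.41, 1.17 and 1.32 within series C (2 against 2, not called). SS + RSD + minocycline against SS gave 0 of 9 in the cortex (0%) and the hippocampus (0%), with 1 unadjusted p under 0.05 in each. In the cortex it was that of Calb2 (1.60, SE 0.54), which was 0.21 (SE 0.18) without the libraries that stood apart, and in the hippocampus that of Gad2 (0.22, SE 0.09).

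In AA mice with RSD and minocycline the picture was the same. AA + RSD + minocycline against AA + RSD gave 0 of 9 members in the cortex (0% of all genes) and 0 of 9 in the hippocampus (0.0419%), with 0 unadjusted p under 0.05. AA + RSD + minocycline against AA gave 0 of 9 in the cortex (0.0503%) and 0 of 9 in the hippocampus (0%), with an unadjusted p under 0.05 for 1 member in the cortex, Calb2 (0.81, SE 0.35), which was −0.03 (SE 0.12) without the libraries that stood apart. The genotypes under RSD and minocycline, SS against AA, gave 0 of 9 in the cortex (0.599%) and 0 of 9 in the hippocampus (2.73%), with 0 unadjusted p under 0.05. The single AA + minocycline mouse had 351 CPM of Gad1, 126 of Sst, 46.4 of Vip and 12.3 of Calb2 in the cortex, and 335, 137, 18.9 and 19.3 CPM in the hippocampus.

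Genes around the members gave few calls within a tissue. In these comparisons of genotype, RSD and minocycline 0 genes were called of the lists for GABA synthesis, transport and breakdown, interneuron subtypes, reelin signalling, the perineuronal net and glutamatergic neurons. For SS + RSD + minocycline against SS + RSD, 1 of 15 GABA receptor genes was lower in the cortex, Gabbr1 (−0.18), and 1 of 10 peptide receptor genes was higher in the hippocampus, Npy1r (0.39). In the hippocampus 1 of 4 Cajal-Retzius genes was higher (Ebf3, 1.08) and 2 of 6 genes of the choroid plexus were lower (Enpp2, −1.71, and Kl, −1.34). Choroid plexus genes varied widely between hippocampus libraries. They summed to 151 to 11890 CPM in SS + RSD (median 249) and to 147.5 to 2978 CPM in SS + RSD + minocycline (median 214). In the same contrast glial and vascular genes were called lower: 3 of 7 astrocyte genes in the cortex (Aldh1l1, −0.46) and 2 of 7 in hippocampus, 2 of 6 microglial genes in each tissue (Csf1r, −0.40 in the cortex) and 1 of 5 endothelial genes in each (Pecam1, −0.63 and −0.51). For the same cell types, series B against A in control mice gave 4 of 7 astrocyte genes, 5 of 6 microglial genes and 3 of 5 endothelial genes lower in each tissue, and 0 higher. That comparison of series also called Gabbr1 lower in the cortex (−0.12) and Npy1r higher in the hippocampus (0.50). Ebf3 went the other way there, lower in the hippocampus (−1.12). For SS + RSD against SS, 1 of 6 microglial genes was higher in the cortex (Csf1r, 0.41). For SS against AA in the cortex, the choroid plexus gene Ttr was called higher (3.54). Choroid plexus genes summed to as much as 1744 CPM in SS cortex (median 254) and to at most 322 CPM in AA cortex (median 273). Of the striatal genes, 6 of 9 were higher in SS than AA cortex under RSD and minocycline (Adora2a, 2.34), as was 1 of 16 interneuron transcription factors. This SS group held the libraries of mice 9813, 9890 and 5801, with striatal sums of 1280, 1007 and 593 CPM. The median sum was also higher in the SS group, at 321 CPM against 166 CPM in the AA group, where the highest was 562 CPM. These counts were taken with the libraries that stood apart kept.

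Members differed between the number series in control mice. Series B against A, with genotype in the model, gave 5 of 9 members lower and 0 higher in the cortex, where 40.3% of all genes were called, and 6 of 9 lower and 0 higher in the hippocampus (40.8%). Pvalb fell by 0.60 (SE 0.13) and 0.75 (SE 0.16) on the log2 scale in cortex and hippocampus, Npy by 0.45 (SE 0.14) and 0.73 (SE 0.12), Cck by 0.44 (SE 0.13) and 0.69 (SE 0.14), Sst by 0.47 (SE 0.14) and 0.50 (SE 0.16), and Calb2 by 0.36 (SE 0.11) and 0.84 (SE 0.22). Gad1 was lower in the hippocampus (−0.22, SE 0.06). Gad2, Vip and Reln were not called in either tissue. Series B control libraries also had more reads outside annotated genes, with a median of 9.69% against 4.94% in the cortex and 8.29% against 5.05% in the hippocampus.

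A further measure moved with these levels. The length index of a library is the mean log2 deviation of genes of over 8000 exonic bases minus that of genes of under 3000, the members left out, and it had a median of −0.21 in control cortex of series A and 0.23 in that of series B (hippocampus −0.33 and 0.27). In the cortex (n = 65 libraries) the index correlated with log2 CPM of Sst (Pearson's r = −0.885, Spearman's rho = −0.856), Npy (r = −0.854, rho = −0.843) and Cck (r = −0.772, rho = −0.776). Each had a permutation p of 1e-05, the smallest that the permutations can give, and an adjusted p of 1.8e-05 over 18 relations. In the hippocampus (n = 63) r was −0.941 for Cck (rho −0.924), −0.866 for Npy (rho −0.862), −0.818 for Sst (rho −0.828) and −0.765 for Pvalb (rho −0.749), with the same permutation p. Without the 2 libraries of most extreme index these became −0.847 (Sst), −0.816 (Npy) and −0.705 (Cck) in the cortex and −0.932 (Cck), −0.840 (Npy), −0.776 (Sst) and −0.739 (Pvalb) in the hippocampus. Within series B, r was −0.863 (Sst), −0.811 (Npy) and −0.685 (Cck) in the cortex (n = 43), and −0.953 (Cck), −0.841 (Npy), −0.864 (Sst) and −0.713 (Pvalb) in the hippocampus (n = 42). Within series A it was −0.795 (Sst), −0.813 (Npy) and −0.780 (Cck) in the cortex (n = 14), and in the hippocampus (n = 13) −0.795 (Cck), −0.703 (Npy), −0.492 (Pvalb) and −0.274 (Sst).

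Reln and Gad2 went the other way, with r = 0.597 (rho 0.540) and 0.578 (rho 0.494) in the hippocampus and 0.478 (rho 0.469) and 0.355 (rho 0.401) in the cortex, adjusted permutation p 1.8e-05, 1.8e-05, 0.00012 and 0.0061 for r. Cortical Gad2 was at 0.183 without the 2 most extreme libraries, and at 0.663, 0.226 and 0.963 within series A, B and C. Vip (−0.471, rho −0.573), Pvalb (−0.457, rho −0.712) and Calb2 (−0.299, rho −0.531) had values nearer 0 in the cortex, with adjusted permutation p for r of 0.00012, 0.00051 and 0.021. Within series A these were −0.617, −0.732 and −0.011, and within series B −0.312, −0.289 and −0.300. In the hippocampus Calb2 was at −0.582 (rho −0.643, adjusted permutation p 1.8e-05) and Vip at −0.181 (rho −0.218, adjusted permutation p 0.18), with 0.574 for Vip within series A and −0.313 within B. Gad1 was at 0.101 in the cortex and 0.076 in the hippocampus (adjusted permutation p 0.43 and 0.56), and within series A, B and C it was at 0.503, 0.058 and 0.660 in the cortex. By all exons Gad1 (10413 bases) and Vip (8693) are longer than Gad2 (6523), but by the canonical transcript both are shorter (4152 and 1567 against 6099). Whether the members follow their own length therefore depends on the length used and was not tested. SS + RSD libraries had a median index of −0.19 (cortex) and −0.14 (hippocampus), against 0.18 and 0.27 in SS libraries. With the index in the model, SS + RSD against SS gave 0.03 for Sst, 0.04 for Npy, −0.08 for Pvalb and −0.24 for Cck in the cortex, and Reln in the hippocampus reached 0.52 (SE 0.15, adjusted p = 0.042 by edgeR).

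**Figure D5:**
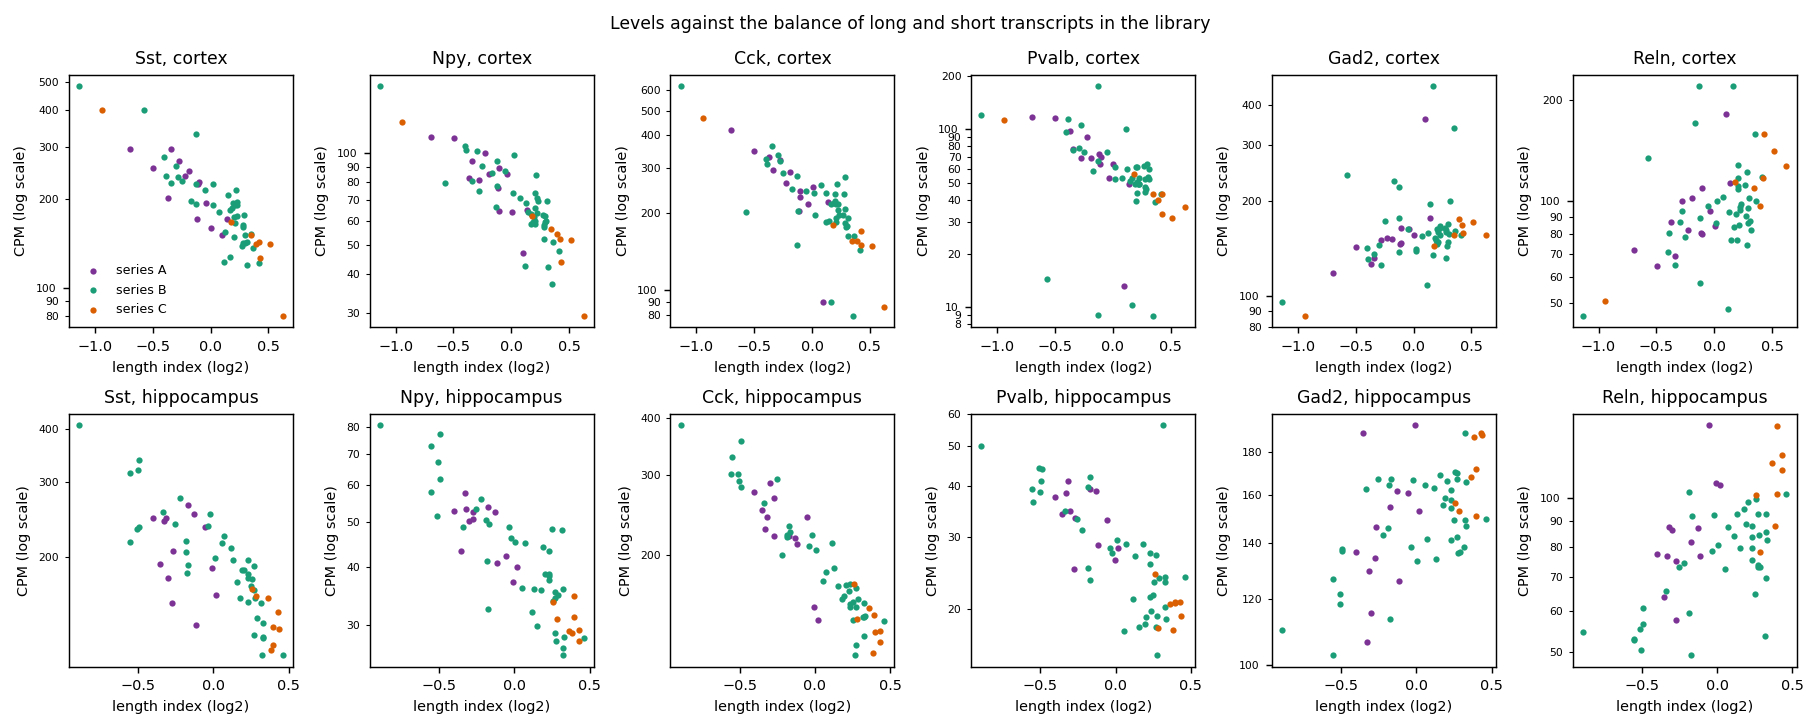
CPM (log scale) of Sst, Npy, Cck, Pvalb, Gad2 and Reln against the length index of the library (a log2 difference), both tissues, coloured by number series. Sst, Npy and Cck fall as the index rises (r from −0.772 to −0.941), while Gad2 and Reln rise with it in the hippocampus (r 0.578 and 0.597).

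The levels of a mouse in its 2 tissues were related for some members. Over 63 mice Npy had r = 0.503 (rho 0.582), Cck r = 0.432 (rho 0.562) and Sst r = 0.412 (rho 0.542), with adjusted permutation p of 9e-05, 0.0018 and 0.0026 for r over 9 relations. Without the 2 mice farthest from the median r was 0.486, 0.375 and 0.409, and within series B (n = 42) it was 0.524, 0.383 and 0.404. Within series A (n = 13) it was 0.296, 0.618 and 0.585, and within series C (n = 8) it was below 0, at −0.231, −0.326 and −0.263. Vip (r = 0.024, rho 0.065) and Gad2 (r = −0.058, rho 0.025) had adjusted permutation p of 0.85 and 0.73.

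The genes most like each member were sought by Pearson's r over libraries with the group means taken off, among 13398 genes for cortex and 13480 for hippocampus, and are given as a description since libraries share their depth, composition and length index. In the hippocampus Sst was most like Cort (r = 0.904), the gene of the related peptide cortistatin, and Gad1 most like Gad2 (0.651). In the cortex Calb2 was most like the interneuron factor gene Dlx5 (0.899), and Pvalb (0.942) and Vip (0.857) both like Ephx4. Lamp5 was among the 3 nearest of Pvalb (0.921) and Vip (0.846), and Nos1 among those of Reln (0.859). Cck was nearest to 1110008P14Rik (0.936) in the cortex and to Cox6a1 (0.972) in the hippocampus, Sst to Mif (0.941) and Npy to Sh3bgrl3 (0.915) in the cortex. Npy in the hippocampus was nearest to Nudt9 (0.922). Among the members themselves, r was 0.854 for Sst with Npy and 0.859 for Npy with Cck over cortex libraries, and 0.832 and 0.837 over hippocampus libraries.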

How the data were processed

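RNA of the cerebral cortex and hippocampus was measured in 134 libraries with a known group. The authors made directional libraries from polyadenylated RNA, aligned single-end reads with STAR to GRCm39 and deposited, per tissue, a table of whole-number read counts per GENCODE gene without normalization. The STAR version, annotation release and strand setting are not given in the sources used here. Depth, 12869149 to 107713193 reads on genes, left every member with at least 205 reads in each library tested, so that the spread between mice sets the precision. Not analysed here were 1 library with labels for more than 1 tissue and 3 columns that no labelled library matched.

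The members, the gene lists and the tests were chosen with earlier results of these data known. Groups came from the labels, and replicates are separate mice. Counts were tested in R 4.3.3 with edgeR 4.0.16 (TMM, filterByExpr with minimum count 10 and minimum total count 15, quasi-likelihood test) over all genes, in one model of a genotype's groups, or of all groups where genotypes were compared. A gene was called where its p, adjusted by Benjamini-Hochberg, was under 0.05. Standard errors given for edgeR are the size of the log2 difference divided by the square root of the test's F statistic. Alternatives were DESeq2 1.42.0 with its Wald test, RLE size factors in edgeR, no filter, only the groups compared, number series or reads outside genes as a term, single series, keeping the libraries left out, and leaving out replicates. The length index and leaving out the libraries that stood apart were added after seeing the data. The members are named in every comparison; other list genes are the called ones of largest change, up to 4 a list, and the 3 genes most like each member. The search for the genes most like each member and the check of mouse numbers used log2 CPM with a prior count of 2. Other correlations used log2 CPM without a prior count, and those with a p had 100000 permutations, two-sided. Both tissues of a mouse carry its number in the labels, and 61 of 62 mice had deviations from the group means that correlated above 0.1 between the tissues (median 0.588, range −0.209 to 0.908, 13124 genes), 28 best with their own number. The tests were checked on simulated data. Positions came from a GENCODE annotation of GRCm39 at hand and start regions from RefSeq tables of GRCm38.p6, which gave no positions for the counts.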

Additional observations from a re-analysis of the deposited data

Results flagged for a closer look

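For a member in a group of 4 to 10 libraries of a tissue, a single library lay far from the others in 5 of 54 cases tested, and chance alone marks about 1 in 20 groups. In SS + RSD cortex, mouse 9621 had the highest Calb2 (77.4 CPM, next 23.3 CPM), the highest Gad1 (592 CPM, next 376 CPM) and the highest Gad2 (363 CPM, next 163 CPM), and the same library stood apart in olfactory bulb and striatal genes. In SS cortex, mouse 5353, of series A, had the highest Pvalb (98.0 CPM, next 68.5 CPM). In SS hippocampus, mouse 9903 had the lowest Reln (49.3 CPM, next 73.2 CPM).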

How the results depend on the processing

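Of the values for single members under the alternatives, 3804 kept their direction and call, 14 became called, 21 lost their call, 9 changed sign and 4 levels moved beyond the spread between mice. The cause was not tested in any case. Members called went from 0 to 1 for SS + RSD against SS in the cortex with only the groups compared (Calb2) and in the hippocampus with the length index as a term (Reln), for SS + RSD + minocycline against SS + RSD in the cortex without the libraries that stood apart (Vip) and in the hippocampus with the length index (Reln, −0.46), for SS against AA in the hippocampus by DESeq2 and with the length index (Gad2, −0.34 and −0.33), and for AA + RSD + minocycline against AA + RSD in the hippocampus with the libraries labelled 9674 (Vip, −1.06). Within series B in the cortex, where the SS + minocycline group has 2 libraries, it went to 4 for SS + RSD + minocycline against SS + minocycline (Cck −1.40, Npy −0.96, Sst −1.001, Reln 0.85), beside 4420 of 19253 genes, and to 3 for SS + minocycline against SS (Cck 1.35, Npy 1.197, Sst 1.25), beside 5225 of 19253. Within series C the former had the opposite signs (Cck 1.41, Npy 1.17, Sst 1.32, Reln −0.74), with 0 called. Between the tissues 7 were called, 4 without the filter on low counts and 4 in series A alone, where fewer mice were tested. Cck, Gad1 and Reln lost their call in both, and Reln alone in series B and without the libraries labelled 5844, 5853, 7078 and 9631 (0.17, adjusted p = 0.0505 by edgeR). With the replicate block, which takes the mouse as a block, 7 were called, the same members, and the interactions with tissue stayed at 0. Series B against A went from 5 to 0 in the cortex with reads outside genes or with the length index as a term, and from 6 to 1 and 0 in the hippocampus. Signs turned there in the cortex with reads outside genes for Calb2 (0.038), Cck (0.052) and Npy (0.039), with the length index for Calb2 (0.0016), Cck (0.092), Npy (0.11) and Sst (0.095), and in the hippocampus with the length index for Cck (0.0079) and Sst (0.071). Leaving out 1 replicate at a time, run in the AA + RSD, SS + RSD and SS + minocycline groups for the comparisons that hold them, gave 0 members called each time. The tissue comparisons hold no AA + RSD mice, so keeping the libraries labelled 9674 gave no value for them, and single series were run only where each group had at least 2 libraries.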

Other observations

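Left out of the tests, the library labelled hippocampus of mouse 9674 had 112 CPM of Npy and 102 CPM of Pvalb, and the library labelled cortex 55.2 CPM of Npy and 53.4 CPM of Pvalb. Gad1 was the steadiest member over control cortex libraries, with a coefficient of variation of 6.88%, and Calb2 the most variable over control hippocampus libraries, with 40.7%. In SS control hippocampus Pvalb divided by number series like Calb2, at 37.5 and 38.3 CPM in the 2 mice of series A and at 15.4 to 23.9 CPM in the 5 of series B.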
